A study of Mus musculus with 6 samples.

Results

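The 6 genes described here make and restrain plasmin at the cell surface or belong to the same family of protease inhibitors. They are the plasminogen activators *Plat* and *Plau*, the receptor *Plaur*, and the serpins *Serpine2*, *Serpinf1*, and *Serpinh1*. They were picked by Ensembl identifier from the 55401 genes of a count table, and all 6 were among the 22318 genes kept by the filter on low values (2 counts or more in 5 or more of the 6 libraries). The libraries are bulk RNA sequencing (RNA-seq) of primary Schwann cells (SCs), the glia that wrap and support peripheral axons, with 3 WT and 3 *Plxnb1*-/- libraries. *Plxnb1* encodes Plexin-B1, a receptor for semaphorins, and the comparison asks what SCs express differently without it.

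The mutant mice were on a C57BL/6 background and carried a gene trap cassette (a transmembrane domain with lacZ and neo) in *Plxnb1* in the germline, so that every cell of the animal carried it and not SCs alone. The SCs of both genotypes came from adult dorsal root ganglia, were expanded over several passages in medium with serum, forskolin, neuregulin, and ascorbic acid, and were depleted of fibroblasts with antibody to Thy1. The study states only a lower bound on the purity of the cultures it used, so other cell types could remain in them. The labels and the RNA-seq methods of the study give the controls as WT. Its general section on mice names both WT and heterozygous littermates as experimental controls. What separates the replicates of a genotype is not stated beyond their number, so p-values measure the spread between these libraries. Sequencing used poly(A) RNA of these cultures.

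Plasminogen is an inactive protease that circulates in blood and is cut to plasmin by either of a pair of activators. Tissue plasminogen activator (tPA, from *Plat*) works best on fibrin, and urokinase (uPA, from *Plau*) works best when held at the cell surface by its receptor uPAR (from *Plaur*). Plasmin cleaves fibrin and matrix proteins and can activate matrix metalloproteinases. In peripheral nerve the activators are known for clearing fibrin and for the matrix turnover that goes with nerve repair. Serpins are proteins of a shared fold, most of which trap a serine protease by acting as its bait. *Serpine2* encodes protease nexin-1, a glia-derived inhibitor of thrombin, uPA, and tPA. *Serpinf1* encodes pigment epithelium-derived factor (PEDF), a secreted neurotrophic and anti-angiogenic serpin that inhibits no known protease. *Serpinh1* encodes HSP47, a chaperone of the endoplasmic reticulum that binds procollagen and likewise inhibits no protease.

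The data behind the comparison were deep and even. A library held from 59252048 to 77280964 counts in all. The floor of detection was set at 3 counts, equal to between 0.0388 and 0.0506 CPM (counts scaled to library size), and covers counting error only. Any pair of libraries correlated across genes at an r of 0.991 to 0.993 on log2(count + 1), where genes are not independent of each other. *Plxnb1* itself (chromosome 9, 109095389 to 109119917, plus strand) stood at 61.8, 45.4, and 96.4 CPM in WT replicates 1, 2, and 3 and at 13.1, 16.6, and 18.6 CPM in *Plxnb1*-/- replicates 1, 2, and 3, with a log2 fold change of −2.08 ± 0.25 (SE, n = 3 per genotype, adjusted p = 0.0449, edgeR's quasi-likelihood test). The study reports lost expression for the exons that lie after the inserted cassette, whereas the counts here cover all exons of the gene. The share of exons before the cassette in the remaining mutant counts was not tested. *Plxnb1* also shares exon bases with 1 other gene, on the opposite strand, and whether the counting used strand is not given in the sources used here. WT replicate 2 stood farthest out on the first principal component (30.0% of the variance), at 47.4. The other WT libraries were at 3.58 and 7.52, and *Plxnb1*-/- replicates 1, 2, and 3 at −10.3, −14.1, and −34.0. *Plxnb1*-/- replicate 3 thus also stood apart from its genotype. Values without WT replicate 2 are given beside the results that it moves most. Genes that passed with DESeq2, the tool of the study, numbered 335 with all libraries, 160 without WT replicate 2, and 46 without *Plxnb1*-/- replicate 3.

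The SC identity of the cultures was checked with the summed CPM of marker genes. The 14 SC markers, among them *Sox10*, *Ngfr*, and *Erbb3*, summed to between 4060.0 and 4738 CPM in WT and between 4771 and 5295 CPM in *Plxnb1*-/- libraries, and 13 of 14 were higher in the mutant. *S100b*, a usual SC marker, was low at 7.56 and 7.65 CPM by the mean, whereas *Sox10* was at 486 and 550.2 CPM. The 10 fibroblast markers summed to between 1054 and 1458 CPM in WT, where WT replicate 2 was the highest, and to between 1057 and 1077 CPM in *Plxnb1*-/- libraries. The 8 mural cell markers ranged from 1882 to 2507 CPM in WT and from 1705 to 1832 CPM in the mutant. Of these 8, 4 were higher and 4 lower in the mutant, and *Acta2*, 1 of the lower ones, averaged 969 CPM in WT and 724 CPM in the mutant. The 10 macrophage markers ranged from 42.1 to 47.8 CPM in WT and from 48.8 to 57.1 CPM in the mutant. Markers of satellite glia (6 genes) ranged from 715 to 833 CPM in WT and from 863 to 886 CPM in the mutant, of neurons (10 genes) from 153 to 166 CPM and from 168 to 192 CPM, and of endothelial cells (8 genes) from 67.0 to 89.3 CPM and from 70.8 to 77.0 CPM. Every one of these lists had 0 markers at 0 in all libraries, but not every marker was above the floor. *Kcnj3* of the satellite glia list was at 0.0313 CPM in WT replicate 1 and at 0 in the other libraries. *Kcnj10* of the same list averaged 704 CPM in WT and 787 CPM in the mutant, so this sum rests largely on 1 gene. *Thy1*, the marker used for the depletion, was at 429, 652, and 489.9 CPM in WT and at 409.7, 409, and 384 CPM in the mutant. In bulk samples, fewer cells of a type and less RNA per cell cannot be told apart, and the part that these markers play in the results that follow was not tested.

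The genes lie on 5 chromosomes, and 0 of the 6 share exon bases with another annotated gene (GENCODE, GRCm38), so that their counts do not depend on an overlapping neighbor. *Plaur* (chromosome 7, 24462484 to 24475968, plus strand) and *Serpinh1* (chromosome 7, 99345376 to 99353239, minus strand) are on the same chromosome, far from each other. RefSeq promoter sequence (GRCm38.p6) was matched for 4 of the 6 genes, and not for *Plat* and *Plau*. The stretches before the RefSeq start of *Plaur*, *Serpine2*, and *Serpinh1* follow, 5′ to 3′ on the strand of the gene and without annotated exon bases. They are shown because these genes are described together and their start regions differ in letters that are easily found. Capitals mark AP-1 (TGANTCA) and SP1 (GGGCGG) motifs on either strand.
*Plaur*, chr7:24462233-24462482, plus strand: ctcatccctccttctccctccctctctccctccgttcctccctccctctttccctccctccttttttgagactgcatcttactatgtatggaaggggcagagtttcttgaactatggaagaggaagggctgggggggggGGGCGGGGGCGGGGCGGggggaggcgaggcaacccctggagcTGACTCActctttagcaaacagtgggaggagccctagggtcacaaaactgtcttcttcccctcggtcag
*Serpine2*, chr1:79858697-79858915, minus strand: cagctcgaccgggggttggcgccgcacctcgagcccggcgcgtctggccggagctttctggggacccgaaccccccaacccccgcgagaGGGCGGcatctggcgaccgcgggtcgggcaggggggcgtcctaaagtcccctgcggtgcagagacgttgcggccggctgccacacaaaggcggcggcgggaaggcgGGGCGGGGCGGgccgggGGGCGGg
*Serpinh1*, chr7:99353240-99353489, minus strand: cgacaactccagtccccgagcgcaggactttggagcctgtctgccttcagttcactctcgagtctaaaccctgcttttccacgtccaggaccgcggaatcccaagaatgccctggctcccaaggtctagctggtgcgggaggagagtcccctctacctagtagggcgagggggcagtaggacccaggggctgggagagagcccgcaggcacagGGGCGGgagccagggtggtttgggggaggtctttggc
The *Plaur* stretch holds 1 AP-1 motif, 69 bases before the start, and 3 SP1 motifs that begin 111, 105, and 100 bases before it, of which the latter 2 share a base. The *Serpine2* window of 250 bases holds 6 SP1 motifs, 4 of them in the 219 bases shown, and no AP-1 motif. The stretch shown stops at an annotated exon, short of the RefSeq start. It lies inside the annotated span of *Serpine2* (79794197 to 79861180, minus strand), and so not before the outermost annotated start. The *Serpinh1* stretch holds 1 SP1 motif, 37 bases before the start. The *Serpinf1* window begins in an annotated exon at its end far from the start and is not shown. It holds 0 of these motifs, and none of the 4 windows holds TATAAA. Of 32851 promoters of the same length, 6.75% hold the AP-1 letters, 32.7% the SP1 letters, and 12.4% TATAAA. A match is a description of letters and not of a bound site.

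The levels of the genes were compared with each other as CPM per kilobase of exon, which sets aside that long genes collect more reads. It does not set aside that the reads were aligned without spanning introns. *Plau* has 11 exons in 2.37 kb and *Plat* 13 in 6.24 kb, and the part of this in the order of the genes was not tested. The order from high to low was *Serpinh1*, *Serpinf1*, *Plat*, *Serpine2*, *Plau*, and *Plaur*. *Serpinh1* averaged 671 ± 60.1 CPM per kilobase in WT and 589 ± 9.94 in *Plxnb1*-/- SCs (mean ± SD, n = 3), and *Serpinf1* averaged 411 ± 39.9 and 353 ± 17.7. So the collagen chaperone and PEDF, which inhibit no protease, were the highest of the 6. *Plat*, at 111 ± 2.75 and 113 ± 4.48 CPM per kilobase, and *Serpine2*, at 97.6 ± 8.75 and 110.0 ± 6.02, were neighbors that could not be ranked. *Plat* was above *Serpine2* in 5 of 6 libraries, and their ranges overlapped. *Plau* followed at 43.6 ± 6.77 and 31.8 ± 4.53 CPM per kilobase and *Plaur* at 23.9 ± 1.15 and 19.4 ± 1.43. Each of the other 4 neighboring pairs kept its order in 6 of 6 libraries with ranges that did not overlap. Both activators were thus transcribed, with tPA messenger above uPA messenger by this measure. *Plg*, the gene of plasminogen itself, was at 0 CPM in all 3 WT libraries and at 0.0259, 0, and 0.0288 CPM in *Plxnb1*-/- libraries. These values are below the floor of 3 counts, and *Plg* was therefore not detectable at this depth.

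**Figure D1:**
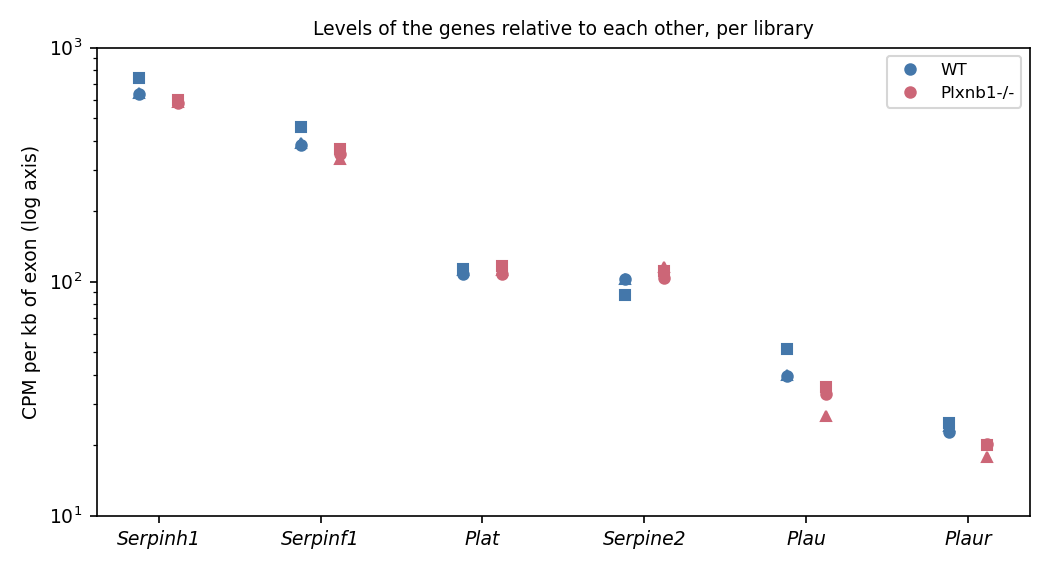
Level of each gene as CPM per kilobase of exon on a log axis, with 1 point per library, circles, squares, and triangles for replicates 1, 2, and 3, WT in blue and *Plxnb1*-/- in red. *Serpinh1* and *Serpinf1* sit highest, *Plat* and *Serpine2* share a level near 100 CPM per kilobase, and *Plau* and *Plaur* are lowest, in the same order in both genotypes.

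Between genotypes, *Plau* and *Plaur* were lower in all 3 *Plxnb1*-/- libraries than in all 3 WT libraries, and both passed the test with DESeq2 but not with edgeR. *Plat* did not separate the genotypes. A call required a log2 fold change of over 0.25 in size together with an adjusted p under 0.05, the adjustment running over all tested genes. edgeR called 0 of the 6 genes, where it called 0.0358% of all tested genes (8 of 22318). DESeq2 on the same genes called 2 of the 6, *Plau* and *Plaur*, both lower, against 0.811% of all genes called lower (181 genes) and 1.5% called in either direction (335 genes). At an unadjusted p below 0.05 in edgeR there were 5 of the 6, against 13.7% of all tested genes, and without WT replicate 2 there were 4, against 9.1%. The ranges of the genotypes did not overlap in 5 of the 6, with 4 lower in the mutant, against 10.4% of all genes, and 1 higher, against 9.3%. The median log2 fold change of the 6 genes was −0.20, where that of all tested genes was 0.005. Without WT replicate 2 it was −0.12, against 0.0086 for all genes.

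Of the activators, *Plat* (chromosome 8, 22757727 to 22782844, plus strand, 13 exons) was at 675, 708, and 700.3 CPM in WT replicates 1, 2, and 3 and at 674, 729.9, and 703 CPM in *Plxnb1*-/- replicates 1, 2, and 3. The genotypes overlapped, with the highest and the lowest library both from the mutant. The means were 694 ± 17.1 and 702 ± 28.0 CPM (SD, n = 3). The log2 fold change was 0.02 with a 95% interval of −0.09 to 0.12 (adjusted p = 0.905, edgeR; 0.935, DESeq2), so the data leave room for a change of that size in either direction. *Plat* was the steadiest of the 6, with between 41421 and 52907 counts per library behind its values.

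*Plau* (chromosome 14, 20836660 to 20843385, plus strand, 11 exons) was at 93.4, 122, and 94.3 CPM in WT and at 78.2, 84.2, and 63.4 CPM in *Plxnb1*-/- SCs. The genotypes did not overlap, with WT replicate 2 the highest and *Plxnb1*-/- replicate 3 the lowest. The mean was 103 ± 16.0 CPM in WT and 75.3 ± 10.7 CPM in the mutant, a change of −27.0%. The log2 fold change was −0.45 ± 0.12 (SE), with a 95% interval of −0.73 to −0.18, and the adjusted p was 0.273 in edgeR and 0.0147 in DESeq2. The DESeq2 call was lost without WT replicate 2 (log2 fold change −0.32, adjusted p = 0.0808, DESeq2), without *Plxnb1*-/- replicate 1 (−0.49, adjusted p = 0.0538), and without *Plxnb1*-/- replicate 3 (−0.35, adjusted p = 0.342). Such fits also have fewer libraries. Without *Plxnb1*-/- replicate 1 the change was larger in size than the −0.46 of the full DESeq2 fit, and the SE was 0.15 against 0.12. The direction was the same in each case.

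*Plaur*, the uPA receptor (6 exons, described above with its start region), was at 59.4, 65.4, and 63.1 CPM in WT and at 53.1, 52.6, and 46.4 CPM in *Plxnb1*-/- SCs. All 3 mutant libraries lay below all 3 WT libraries, and the spread within a genotype was narrow. The mean was 62.6 ± 3.01 CPM in WT and 50.7 ± 3.73 CPM in the mutant, a change of −19.0%. The log2 fold change was −0.30 ± 0.06, with a 95% interval of −0.44 to −0.16, and the adjusted p was 0.255 in edgeR and 0.00702 in DESeq2. Without WT replicate 2 the log2 fold change was −0.27 and DESeq2 still called it (adjusted p = 0.0341). The call was lost without *Plxnb1*-/- replicate 3 (−0.25, adjusted p = 0.156, DESeq2) and without WT replicate 3 (−0.30, adjusted p = 0.0675). *Plaur* had between 3218 and 4470 counts per library, and *Plau* between 4392 and 7120. edgeR itself called both *Plau* (adjusted p = 0.0301) and *Plaur* (adjusted p = 0.0252) when low genes were not filtered out, a setting in which 0.949% of 31191 genes were called.

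**Figure D2:**
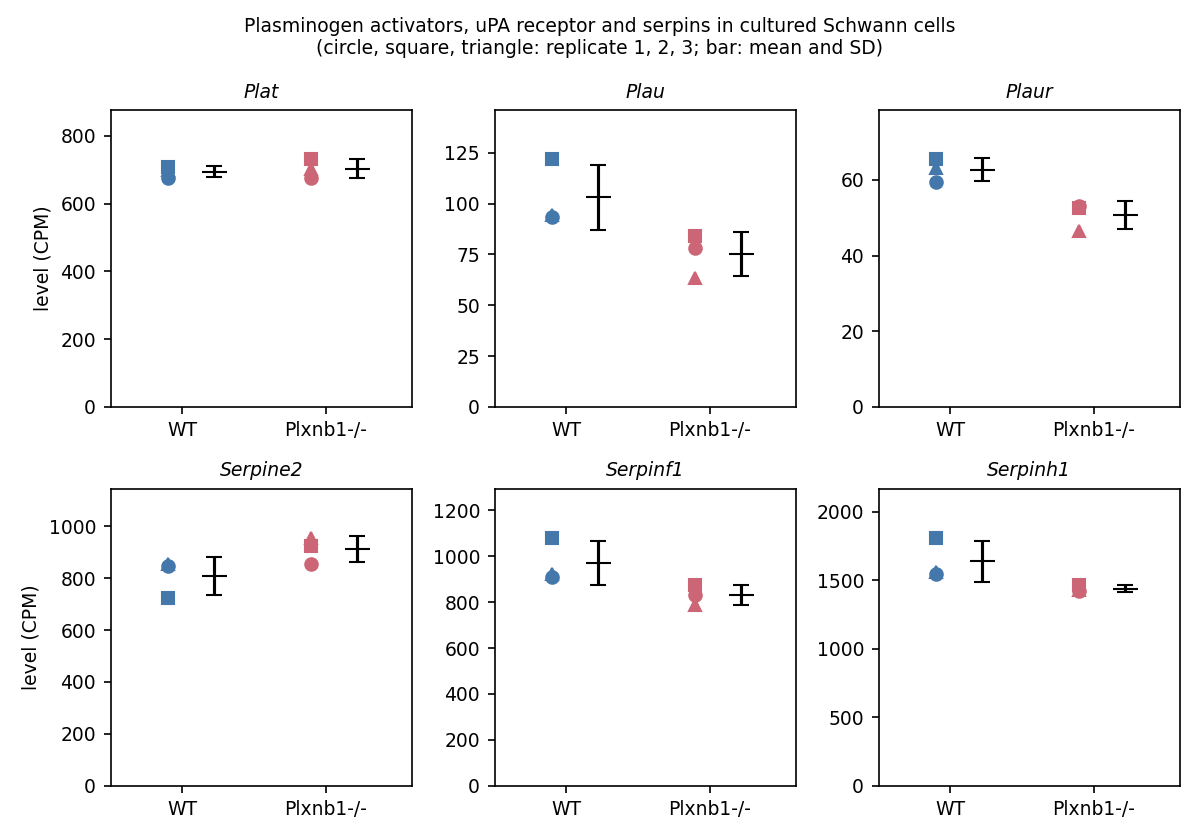
CPM of each gene in each library (linear axes from 0), with circles, squares, and triangles for replicates 1, 2, and 3, WT in blue, *Plxnb1*-/- in red, and black bars for the mean and SD of 3 libraries. The mutant points of *Plau*, *Plaur*, *Serpinf1*, and *Serpinh1* lie below the WT points, those of *Serpine2* lie above them, and those of *Plat* overlap. The square of WT replicate 2 is the highest WT point in every panel but that of *Serpine2*, where it is the lowest.

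Among the serpins, the inhibitor *Serpine2* was the 1 gene of the 6 that was higher in the mutant without overlap. *Serpine2* (chromosome 1, 79794197 to 79861180, minus strand, 10 exons) was at 847, 725, and 854 CPM in WT and at 857, 924, and 954 CPM in *Plxnb1*-/- SCs. The gap between the genotypes was narrow, since WT replicate 3 and *Plxnb1*-/- replicate 1 lay next to each other, and the low WT value came from WT replicate 2. The means were 809 ± 72.5 and 912 ± 49.9 CPM. The log2 fold change was 0.17 ± 0.07 (adjusted p = 0.339, edgeR; 0.221, DESeq2) and was 0.10 without WT replicate 2. The SC marker sum given above was likewise higher in all 3 mutant libraries than in all 3 WT libraries, and its part in the *Serpine2* value was not tested.

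*Serpinf1* (chromosome 11, 75409769 to 75422701, minus strand, 9 exons) was at 908, 1079, and 924 CPM in WT and at 833, 873, and 789 CPM in *Plxnb1*-/- SCs. The mutant libraries were the 3 lowest, and WT replicate 2 was the highest. The means were 970.4 ± 94.1 and 832 ± 41.8 CPM. The log2 fold change was −0.22 ± 0.07 (adjusted p = 0.290, edgeR; 0.0979, DESeq2), and it was −0.14 without WT replicate 2. DESeq2 called *Serpinf1* in 1 leave-one-out fit, that without WT replicate 1 (−0.27, adjusted p = 0.0229).

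*Serpinh1* was at 1547, 1808, and 1561 CPM in WT and at 1419.5, 1467, and 1434 CPM in *Plxnb1*-/- SCs. The mutant libraries lay close together and below the WT libraries, of which WT replicate 2 was again the highest. The means were 1639 ± 147 and 1439.9 ± 24.3 CPM. The log2 fold change was −0.19 ± 0.06 (adjusted p = 0.294, edgeR; 0.129, DESeq2), and −0.11 without WT replicate 2. That library also had the highest fibroblast and mural marker sums. The mural sums of the 3 mutant libraries lay below those of the 3 WT libraries, with and without WT replicate 2. Of the 8 mural markers, however, 4 were higher and 4 lower in the mutant. The part of fibroblasts and mural cells in the values of *Serpinf1* and *Serpinh1* was not tested.

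**Figure D3:**
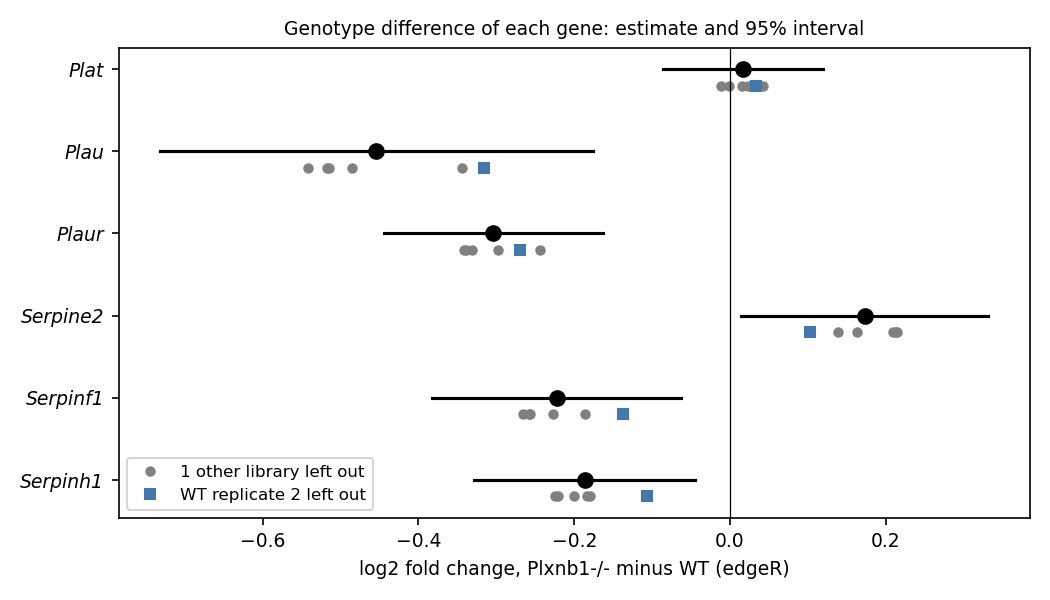
Log2 fold change (*Plxnb1*-/- minus WT) of each gene, with black points and lines for the edgeR estimate and its 95% interval, gray points for fits with 1 other library left out, and blue squares for the fit without WT replicate 2. The interval of *Plat* spans 0, and those of *Plau* and *Plaur* lie below −0.16. Leaving out WT replicate 2 moves every gene but *Plat* toward 0, with *Plau* going from −0.45 to −0.32.

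Ratios within a library do not depend on how libraries are scaled. They set the transcripts of the activators, the receptor, and the inhibitor *Serpine2* against each other, and protein and protease activity were not measured. They are given as CPM per kilobase over CPM per kilobase and without a test. *Plau* to *Plat* was 0.365, 0.453, and 0.355 in WT and 0.306, 0.304, and 0.238 in *Plxnb1*-/- SCs. The mutant ratios were lower by the mean (−27.8%, and −21.5% without WT replicate 2) and did not overlap with WT. *Plau* to its receptor *Plaur* was 1.74, 2.06, and 1.65 in WT and 1.63, 1.77, and 1.51 in the mutant, and the genotypes overlapped. The transcripts of ligand and receptor were thus both lower in the mutant, and their ratio did not separate the genotypes.

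Against the inhibitor *Serpine2*, *Plau* was at 0.386, 0.587, and 0.387 in WT and at 0.320, 0.319, and 0.232 in *Plxnb1*-/- SCs, a change of −36.0%, or −24.9% without WT replicate 2. The genotypes did not overlap. *Plat* to *Serpine2* was 1.06, 1.30, and 1.09 in WT and 1.04, 1.05, and 0.978 in the mutant. Here the gap was small and the change of −10.8% shrank to −4.62% without WT replicate 2.

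**Figure D4:**
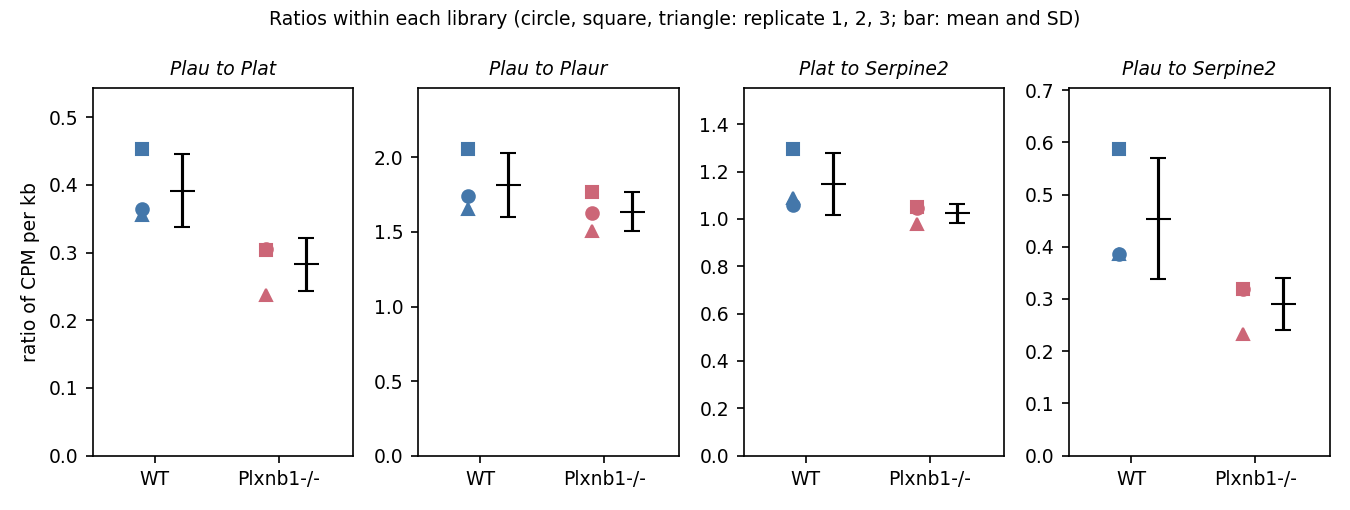
Ratios of CPM per kilobase within each library (linear axes from 0), with circles, squares, and triangles for replicates 1, 2, and 3, WT in blue, *Plxnb1*-/- in red, and bars for the mean and SD of 3 libraries. *Plau* relative to *Plat* and to *Serpine2* is lower in all 3 mutant libraries, whereas *Plau* relative to *Plaur* overlaps between genotypes.

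Lists of related genes were read in the same fit. edgeR called 0 genes in each of the 6 lists that follow. DESeq2 called 6 genes over all of them (2 without WT replicate 2 and 1 without *Plxnb1*-/- replicate 3). For single genes of the lists, fits with a library left out are given for WT replicate 2 only. The counts at an unadjusted p are to be read against the shares of all tested genes given above, with and without WT replicate 2. Of 7 other inhibitors of activators or plasmin, 5 were tested, 3 higher and 2 lower, with a median log2 fold change of 0.21 (0.27 without WT replicate 2), 0 called by DESeq2, and 2 at an unadjusted p below 0.05 in edgeR (0 without that library). *Serpinb2*, which encodes an inhibitor of uPA, was scarce at 2.71 ± 0.466 and 3.56 ± 1.04 CPM. *A2m*, the broad protease trap alpha-2-macroglobulin, was at 0.885 ± 0.327 CPM in WT and 1.55 ± 0.470 CPM in the mutant (log2 fold change 0.79, adjusted p = 0.319, edgeR). *Serpina5* and *Cpb2* were not among the tested genes.

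Of 18 receptors and cofactors that bind plasminogen, its activators, or their complexes, 16 were tested, 5 higher and 11 lower, with a median of −0.02, 0 called by DESeq2, and 2 at an unadjusted p below 0.05 in edgeR. Without WT replicate 2 the median was −0.01 and 1 gene had such a p. *Itgb1*, the integrin beta 1 chain, and *Lrp1*, the endocytic receptor that clears activators bound to their inhibitors, were the most abundant by CPM. *Itgb1* was at 1674 ± 33.1 and 1642 ± 35.1 CPM, and *Lrp1* at 1103 ± 97.1 and 1089.8 ± 83.3 CPM. Neither was distinguishable between genotypes (adjusted p = 0.809 and 0.944, edgeR). *Vtn*, which encodes vitronectin, a ligand of uPAR, was at 4.27 ± 1.01 and 3.43 ± 0.301 CPM (adjusted p = 0.447, edgeR). The receptor system apart from *Plaur* thus gave no call.

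Of 13 substrates and proteases downstream of plasmin, 11 were tested, 6 higher and 5 lower, with a median of 0.09 (0.14 without WT replicate 2) and 6 at an unadjusted p below 0.05 in edgeR (5 without it). DESeq2 called 2, both lower. *Fn1*, which encodes the matrix protein fibronectin, was at 7442, 9692, and 7998 CPM in WT and at 6652, 7199, and 6482 CPM in the mutant, with a log2 fold change of −0.31 (adjusted p = 0.284, edgeR; 0.0452, DESeq2). *Mmp9*, a gelatinase, was at 5.42, 10.5, and 6.98 CPM in WT and at 3.62, 5.28, and 3.61 CPM in the mutant, with a log2 fold change of −0.87 (adjusted p = 0.273, edgeR; 0.00955, DESeq2). In both genes WT replicate 2 was the highest, and both DESeq2 calls were lost without it, with edgeR log2 fold changes of −0.18 for *Fn1* and −0.57 for *Mmp9* (adjusted p = 0.0927 and 0.142, DESeq2). *Mmp14*, a membrane-bound metalloproteinase, was at 979 ± 29.7 and 902 ± 30.7 CPM (log2 fold change −0.12, adjusted p = 0.322, edgeR).

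Thrombin is the other main target of protease nexin-1, and a list of thrombin, coagulation, and related genes held 17 genes. Not all of them act on thrombin or respond to it. Of these 14 were tested, 8 higher and 6 lower, with a median of 0.06 (0.09 without WT replicate 2) and 9 at an unadjusted p below 0.05 in edgeR (6 without it). *F2*, the gene of prothrombin, had 0 counts in all libraries. DESeq2 called 2 genes of the list, both lower and both receptors that proteases switch on by cutting them. *F2rl1*, which encodes PAR2, a receptor that trypsin-like proteases cut, was at 73.8, 96.9, and 75.0 CPM in WT and at 54.7, 52.1, and 47.8 CPM in *Plxnb1*-/- SCs. Its log2 fold change was −0.67 ± 0.10 (adjusted p = 0.130, edgeR; 3.34e-07, DESeq2), and it was −0.53 and still called by DESeq2 without WT replicate 2 (adjusted p = 4.40e-11). *F2r*, which encodes the thrombin receptor PAR1, was at 128, 163, and 132 CPM in WT and at 120.1, 105, and 103 CPM in the mutant. Its log2 fold change was −0.37 (adjusted p = 0.273, edgeR; 0.0190, DESeq2), and the call was lost without WT replicate 2 (−0.25, adjusted p = 0.0567, DESeq2). *Pros1*, the anticoagulant protein S and a ligand of TAM receptors, was at 312 ± 9.56 and 352 ± 16.0 CPM (log2 fold change 0.18, adjusted p = 0.273, edgeR), and *Thbd*, thrombomodulin, was at 136 ± 3.38 and 137 ± 6.86 CPM.

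Of 25 other serpins 14 were tested, 7 higher and 7 lower, with a median of 0.03 (0.15 without WT replicate 2) and 3 at an unadjusted p below 0.05 in edgeR (2 without it). *Serping1*, which encodes the C1 inhibitor of complement and contact proteases, was the 1 gene that DESeq2 called, and it was higher. It was at 20.1, 27.4, and 26.4 CPM in WT and at 33.8, 29.1, and 33.4 CPM in *Plxnb1*-/- SCs, with a log2 fold change of 0.38 (adjusted p = 0.275, edgeR; 0.0423, DESeq2). Without WT replicate 2 it was 0.47 (adjusted p = 0.00899, DESeq2). *Serpina3n*, a secreted serpin of reactive glia, was at 84.1 ± 17.8 and 111 ± 20.9 CPM with overlapping genotypes (adjusted p = 0.339, edgeR), and *Serpinb6a*, an intracellular inhibitor, was at 204 ± 18.5 and 186 ± 6.43 CPM (adjusted p = 0.385, edgeR).

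*Serpinh1* was set beside the procollagens and the other proteins that fold, modify, or process them. All 23 genes of this list were tested, and 22 were lower and 1 higher in the mutant, with a median of −0.13 and 11 at an unadjusted p below 0.05 in edgeR, against 13.7% of all tested genes. The genotypes did not overlap in 12, all lower, against 10.4% of all tested genes. Without WT replicate 2 the median was −0.08, 22 genes were still lower, and 8 had an unadjusted p below 0.05, against 9.1%. The mural marker sum was also lower in all 3 mutant libraries (1705 to 1832 CPM against 1882 to 2507 CPM in WT). Of the 8 mural markers, though, 4 were higher and 4 lower, and their part in these values was not tested. DESeq2 called 1 gene, *Col1a1*, the alpha 1 chain of type I collagen, which was at 5695, 7095, and 5869 CPM in WT and at 5038, 5232, and 4906 CPM in *Plxnb1*-/- SCs. Its log2 fold change was −0.30 (adjusted p = 0.273, edgeR; 0.0258, DESeq2). Without WT replicate 2 it was −0.19 in edgeR, which is below the size required for a call. The adjusted p without that library was 0.00968 in DESeq2. *Col1a2*, the partner chain, was at 5764 ± 405 and 5218 ± 160 CPM (log2 fold change −0.14, or −0.08 without WT replicate 2, adjusted p = 0.334, edgeR). The value of *Serpinh1*, −0.19, lay within the range of these genes.

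**Figure D5:**
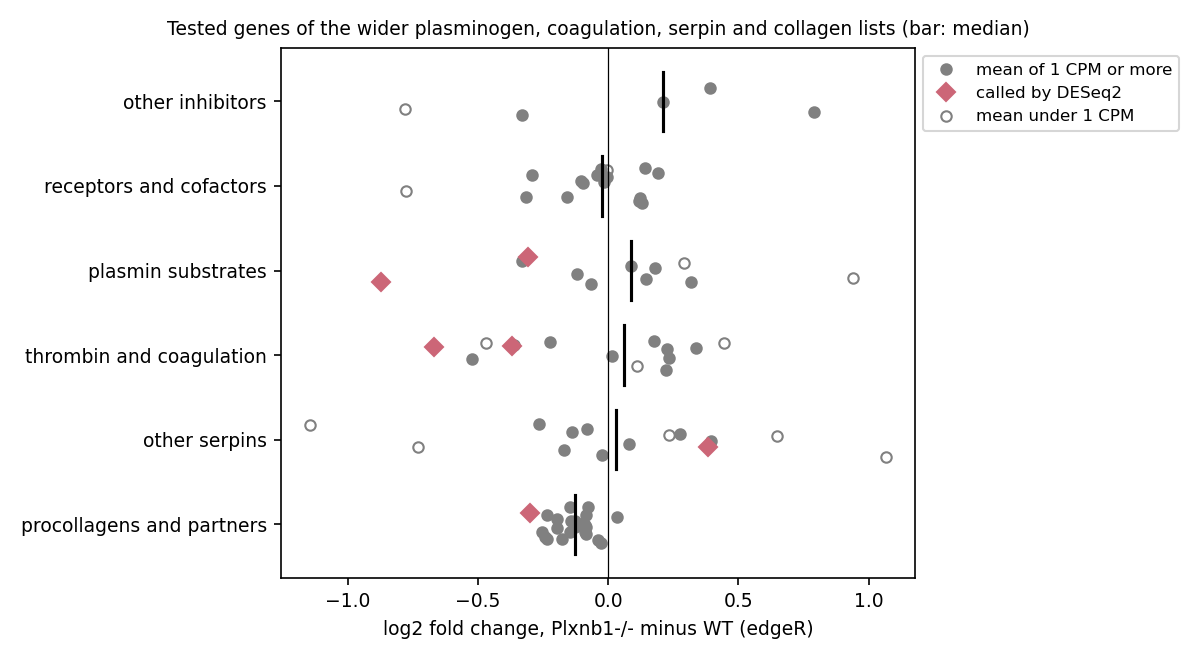
Log2 fold change (*Plxnb1*-/- minus WT, edgeR) of each tested gene in 6 fixed lists, with filled gray points for genes with a mean of 1 CPM or more, open points for genes below it, red diamonds for genes called by DESeq2, and bars for the median. The procollagen list sits almost wholly below 0, with 22 of 23 genes lower, and the other lists spread to both sides.

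The genes whose pattern over the 6 libraries was most like each of the 6 were found among 14992 genes with a mean of at least 1 CPM, by the root mean square difference of centered log2 CPM. For *Plau* they were *Ptk2b*, a kinase of the focal adhesion kinase family, at 0.0433, *Vegfa*, an angiogenic growth factor, at 0.0444, and *Fibin* at 0.0518, where the root mean square of *Plau* itself was 0.287. For *Plaur* (0.170) they were *Arhgef5*, an activator of small GTPases, at 0.0287, *Creb3l1*, a membrane-bound transcription factor, at 0.0358, and *Gm37804* at 0.0401. Their log2 fold changes were −0.49, −0.45, and −0.48 for the former 3 genes and −0.28, −0.32, and −0.27 for the latter. Their closeness to those of *Plau* and *Plaur* follows from choosing the genes by their pattern over the same libraries. *Serpine2* (0.125) was closest to *Fads2*, *Pcdh9*, and *Sema4b*, at between 0.00915 and 0.0106. *Serpinf1* (0.141) was closest to *Msantd3*, *Ftl1-ps1*, and *Rnf19b*, at between 0.0139 and 0.0186, and *Serpinh1* (0.118) to *Srgap3*, *Aars*, and *Rps7*, at between 0.0141 and 0.0151. *Plat*, which varied least (0.0399), was closest to *Mrpl53*, *2310011J03Rik*, and *Mul1*, at between 0.0101 and 0.0112. With 6 libraries such likeness is a description of these samples.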

How the data were processed

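The authors trimmed the reads with Trim Galore 0.6.5, aligned them with Bowtie2 2.4.1, which does not span introns, to the mouse genome (mm10), removed duplicates with SAMtools 1.10, and counted exon reads per gene with featureCounts and GENCODE vM25. The deposited counts were used without other normalization. The strand setting of the counting is not given in the sources used here. The authors also deposited FPKM values, whose length matched the span of the gene within 1% in 99.5% of 15492 genes, and which entered 1 alternative only, as log2(FPKM + 0.1). Symbols, positions, and exon lengths came from GENCODE vM21 (GRCm38), to which 55141 of 55401 genes matched.

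Genes kept by the filter (2 counts or more in 5 or more of 6 libraries) were fitted by genotype with edgeR 4.0.16 in R 4.3.3, using TMM factors, the quasi-likelihood test, and Benjamini-Hochberg adjustment over 22318 genes. Standard errors and 95% intervals came from the log2 fold change and the F statistic. Calls needed a log2 fold change of over 0.25 in size and an adjusted p under 0.05. The alternatives were the tool of the study, DESeq2 1.42.0, its size factors in edgeR, no filter, filterByExpr, a replicate block, limma 3.58.1 on the FPKM values, and each library left out. DESeq2 with each library left out and with the replicate block were added after seeing the data. The edgeR and DESeq2 steps were tested on simulated data. Other steps used SciPy 1.17.1 and pandas 2.3.3 in Python 3.11.15.

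The genes and lists were chosen with earlier results of these data known. From each list, the genes named are those called by either tool, the 2 with the highest mean CPM, and the 1 with the largest absolute log2 fold change at a mean of at least 1 CPM. For each of the 6 genes, the 3 most similar genes were named. *Plg*, *F2*, *Thy1*, *Serpina5*, and *Cpb2* were named after their values had been seen. 1 gene that this rule names is not reported here. Protein sequence was not used here.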

Additional observations from a re-analysis of the deposited data

How the results depend on the processing

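Called genes numbered 8 with edgeR, 335 with DESeq2, 296 with no filter, 5 with the replicate block, 3 with limma on FPKM, and 388 with DESeq2 and the replicate block. With 1 library left out the count was between 4 and 25 with edgeR and 46 to 938 with DESeq2 (938, 160, and 220 without WT replicates 1, 2, and 3, and 286, 121, and 46 without *Plxnb1*-/- replicates 1, 2, and 3). Of the 6 genes, 0 were called by edgeR, and 2 by DESeq2, by edgeR with no filter, and by DESeq2 with the replicate block. With 1 library left out it was 0 in each edgeR fit and between 0 and 3 with DESeq2. Called genes over the 6 lists went from 0 to 6 with DESeq2, 4 with no filter, 10 with DESeq2 and the replicate block, between 0 and 1 with edgeR and 1 library left out, and between 1 and 17 with DESeq2 and 1 library left out. *Plau* passed with DESeq2 (−0.46), with no filter (−0.45), and with DESeq2 and the replicate block (−0.45, adjusted p = 2.25e-05). Its value with 1 library left out was between −0.54 and −0.32 with both tools, and DESeq2 called it without WT replicate 1 (−0.52), WT replicate 3 (−0.52), and *Plxnb1*-/- replicate 2 (−0.54). *Plaur* passed in the same 3 settings (−0.30, −0.30, and −0.31), with a range of −0.34 to −0.24 in edgeR and −0.34 to −0.25 in DESeq2, which called it without WT replicates 1 (−0.34) and 2 (−0.27) and *Plxnb1*-/- replicates 1 (−0.34) and 2 (−0.33). *Serpinf1* ranged from −0.27 to −0.14 with both tools, *Serpine2* from 0.10 to 0.21, and *Serpinh1* from −0.23 to −0.11. *Plat* changed sign, between −0.012 and 0.043 with edgeR and −0.012 and 0.042 with DESeq2 (−0.0046 without WT replicate 1). The cause of these changes was not tested. The labels tie no replicate number to a shared animal or batch, and the deviations of same-numbered libraries correlated at −0.0218, 0.00782, and 0.0653, so the numbers were not taken to pair the libraries. In edgeR the replicate block gave adjusted p = 0.149 for *Plau* and 0.190 for *Plaur* and called 0 of the 6 genes. Each of the 6 genes had at least 3218 counts in every library.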
